A study of Mus musculus with 13 samples.

Results

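The immediate early genes described here are Fos, Fosb, Jun, Junb, Jund, Egr1, Egr2, Atf3, Ier2 and Ier3, 10 of the 33432 genes with a symbol in the expression table. They were taken by symbol from a list drawn up with earlier results of these data known, and all 10 were found and passed the filter on low values. RNA was sequenced from mesenchymal stromal cells (MSCs), connective-tissue cells whose matrix and signals sustain blood formation in the marrow, from mice of C57BL/6 background. The 13 libraries fell into 4 recovered, 6 pre-leukemic and 3 healthy ones. The recovered label matches the protocol's pre-leukemic animals that had been given MSCs, pre-leukemic libraries came from pre-leukemic mice, and healthy ones from control mice. What caused the pre-leukemia is not given in the sources used here, and neither are the ages, the MSC dose and the surface markers of the sort. No source states that replicates came from separate animals, so a p-value here measures only how these samples spread, which may be technical.

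Immediate early genes are transcribed within minutes of a stimulus because the factors that switch them on are already present in the cell. Growth factors, cytokines, mechanical force and stress reach them through MAP kinases, serum response factor (SRF) with its ternary complex partners, and CREB. Fos and Jun proteins pair to form AP-1, which switches on later genes, and the same transcripts are known to rise while a tissue is being dissociated and its cells sorted.

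The start sites of 4 members carry, in the RefSeq sequence of build GRCm38.p6, the letters through which such signals are known to act. Searched were TGACGT (the core of the CREB site), TGACATCA (the AP-1 and ATF site of Jun), TGANTCA (the AP-1 site) and the CArG box bound by SRF, each on both strands, and TATAAA on the gene's strand. Over the 250 bases before the start, TGACGT was present in 6.46% of 32817 promoters, TGACATCA in 2.93%, TGANTCA in 6.75%, the CArG box in 1.47% and TATAAA in 7.6%. RefSeq windows were matched for 8 of the 10 members, so Egr1 and Ier2 were not searched. Bases further than 250 upstream were not searched for any member, so a motif not found here may lie beyond them. The 4 stretches below are shown because these genes moved in different ways in the data, each 100 bases long and written from 5′ to 3′ on the gene's strand, with matched motifs in capitals. The stretches end at the last base before a RefSeq start site, apart from that of Ier3, which ends 30 bases before it. They are Fos at chr12:85473790-85473889 (plus strand), Jun at chr4:95052223-95052322 (minus strand), Egr2 at chr10:67537769-67537868 (plus strand) and Ier3 at chr17:35821584-35821683 (plus strand).
Fos: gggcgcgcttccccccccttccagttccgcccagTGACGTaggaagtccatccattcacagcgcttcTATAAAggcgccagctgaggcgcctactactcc
Jun: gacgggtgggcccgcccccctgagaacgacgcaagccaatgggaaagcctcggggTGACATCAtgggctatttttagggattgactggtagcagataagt
Egr2: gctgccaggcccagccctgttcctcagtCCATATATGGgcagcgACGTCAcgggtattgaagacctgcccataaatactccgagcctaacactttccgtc
Ier3: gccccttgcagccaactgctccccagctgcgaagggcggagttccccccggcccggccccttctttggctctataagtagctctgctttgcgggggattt
In Fos the capitals mark TGACGT and TATAAA, whose first bases lie 66 and 33 bases before the start. In Jun they mark TGACATCA, and in Egr2 a CArG box followed by TGACGT read on the other strand (ACGTCA). The Egr2 stretch precedes the RefSeq start at 67537869, which lies inside the gene as placed below (from 67535475). Of other RefSeq starts of Egr2, the 250 bases before 67535499 held none of these letters. Those before 67537566 held a CArG box alone. The Ier3 window held none of these letters, and neither did the 250 bases before the RefSeq starts of Fosb, Junb and Jund. For Jund that start, 70697739, lies upstream of the gene start given below (70698949), and the 250 bases before the latter were not searched. Atf3, not shown, carried TGACGT on the other strand, from 8 bases before its RefSeq start, which lies inside the gene as placed below.

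All levels are FPKM, fragments scaled by transcript length and library size, so levels of different genes can be set side by side. The FPKM worth of 1 read on a transcript of 1 kb, estimated from the steps between low values, was 0.345 to 0.634 in recovered, 0.165 to 0.239 in pre-leukemic and 0.314 to 0.382 in healthy libraries. The members rested on 79 (Ier3) to 27730 (Fos) estimated reads per library, apart from Egr2 with 0 to 530. Healthy 1 and 3 agreed almost to sampling noise: the chi-square per gene was 1.22 (433 genes of 10 to 100 reads, p = 0.00112) and 1.21 (212 genes of 100 to 1000 reads, p = 0.0206), against at least 10.2 and 22 for the other 23 pairs within groups. Both were averaged and counted as 1 sample, so n is 4 recovered, 6 pre-leukemic and 2 healthy, and a fit without healthy 2 leaves 1 healthy sample that is assumed to vary like the other groups.

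The pre-leukemic libraries did not carry the full marker profile of their label. Of 12 mesenchymal markers, 8 were lower there than in healthy samples (limma adjusted p under 0.05), and Nt5e, Ebf3, Thy1 and Eng were not. The summed level of the 12 was 1770 to 2566 FPKM in recovered, 97.6 to 251.8 in pre-leukemic and 3138 to 3699 in healthy libraries. Pdgfrb, a defining stromal receptor, lay at 15.4 to 37.8, 0.463 to 2.68 and 49.9 to 57.2 FPKM in the same order of groups. Cxcl12 lay at 497.4 to 910.1, 6.75 to 123.6 and 369.0 to 508.0 FPKM. In that order again, 10 pan-leukocyte markers summed to 75.2 to 237.9, 2657 to 3341 and 120.3 to 161.7 FPKM, 9 plasma cell markers to 98.3 to 165.1, 46657 to 72899 and 147.8 to 188.5, and 10 neutrophil markers to 22.8 to 645.9, 3143 to 15470 and 78.7 to 133.9. Most of the plasma cell sum in pre-leukemic libraries was Igj, also counted below as an immunoglobulin gene, at 0 to 13.9, 44478 to 69250 and 0 to 0.263 FPKM. Ptprc, the gene of the pan-leukocyte antigen CD45, was at 0.365 to 16.4 FPKM in recovered, 80.7 to 154.9 in pre-leukemic and 0.0797 to 1.25 in healthy libraries. The plasma cell markers Prdm1 and Tnfrsf17 were at 0 in every recovered and every healthy library. Others of that list were present there: Xbp1 averaged 74.9 FPKM in recovered and 112.9 in healthy samples, Sdc1 33.6 and 30.2, and Mzb1 17.1 and 19.4. Of the 10 neutrophil markers, 6 (S100a9, Ngp, Camp, Ltf, Lcn2 and Retnlg) were at 0 in every healthy library, while Mpo, Elane and Prtn3 lay at 30.1 to 43.3, 24.5 to 34 and 24.1 to 42.4 FPKM in healthy samples. The share of summed FPKM that fell on immunoglobulin genes was 0.0059 to 0.134% in recovered, 54.9 to 80.5% in pre-leukemic and 0.0187 to 0.0301% in healthy libraries. The erythroid markers moved with the recovered label: the 6 in the table summed to 1650 to 2638 FPKM in recovered, 0 to 6.51 in pre-leukemic and 33 to 46.1 in healthy libraries. The 9 monocyte and macrophage markers summed to 16.2 to 62, 3407 to 5162 and 19.1 to 23.6 FPKM in that order, and the 10 T and NK cell markers to 4.43 to 77.7, 488.3 to 693.7 and 18.8 to 36.5. Of the monocyte and macrophage sum, Ly6c2 alone averaged 3155 FPKM in pre-leukemic samples. In that list 5 of 8 tested genes were higher in pre-leukemic against healthy samples (limma adjusted p under 0.05), and Cd68, C1qa and Csf1r were not. The part that cells with any of these markers have in the differences below was not tested, and in bulk samples fewer cells of a type and less RNA per cell cannot be told apart.

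Against this background the members did not move as a block. In pre-leukemic against healthy libraries 6 of the 10 fell (Fosb, Jun, Jund, Egr1, Atf3 and Ier3) and none rose, with limma's test on log2(FPKM + 1) and a Benjamini-Hochberg adjusted p under 0.05. Of all 13118 genes tested, 13.1% were called lower, 14.2% higher and 27.3% in either direction. At an unadjusted p under 0.05 the same numbers, 0 higher and 6 lower, were obtained. Samples of the groups did not overlap for the same 6 members, each lower, against 21.8% of all genes lower, 24.9% higher and 46.6% either way. The median log2 change was -1.13 over the members and 0.20 over all genes. Without healthy 2 the number called was 3, and the share of all genes called in that fit was 13.1% in place of 27.3%.

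Recovered against pre-leukemic libraries gave 6 members higher (Jun, Junb, Jund, Egr1, Atf3 and Ier3) and 1 lower (Fos), where 14.8% of all genes were called higher, 25.1% lower and 40% either way. The median log2 change was 1.30 over the members and -0.41 over all genes. Samples of the groups did not overlap for Jund, Egr1, Atf3 and Ier3 (higher, 10.7% of all genes) and for Fos (lower, 16.5%), a state reached in either direction by 27.2% of all genes. Both comparisons share the pre-leukemic libraries, so their values stand side by side and are not set against each other.

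Recovered against healthy libraries gave 1 call, Fos (lower), where 1.99% of all genes were called lower, 0.518% higher and 2.51% either way. The other 9 changes ran from -1.67 (Egr2) to 0.93 (Jund) on the log2 scale. At an unadjusted p under 0.05 the members gave 0 higher and 1 lower. The groups did not overlap for 4 members, Fos, Fosb, Atf3 and Ier2, all lower in recovered samples, against 11.9% of all genes lower, 7.28% higher and 19.2% either way. With 2 healthy samples the intervals are wide: the 95% interval of the log2 difference ran from -0.70 to 0.22 for Egr1 and from -0.22 to 2.08 for Jund.

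**Figure D1:**
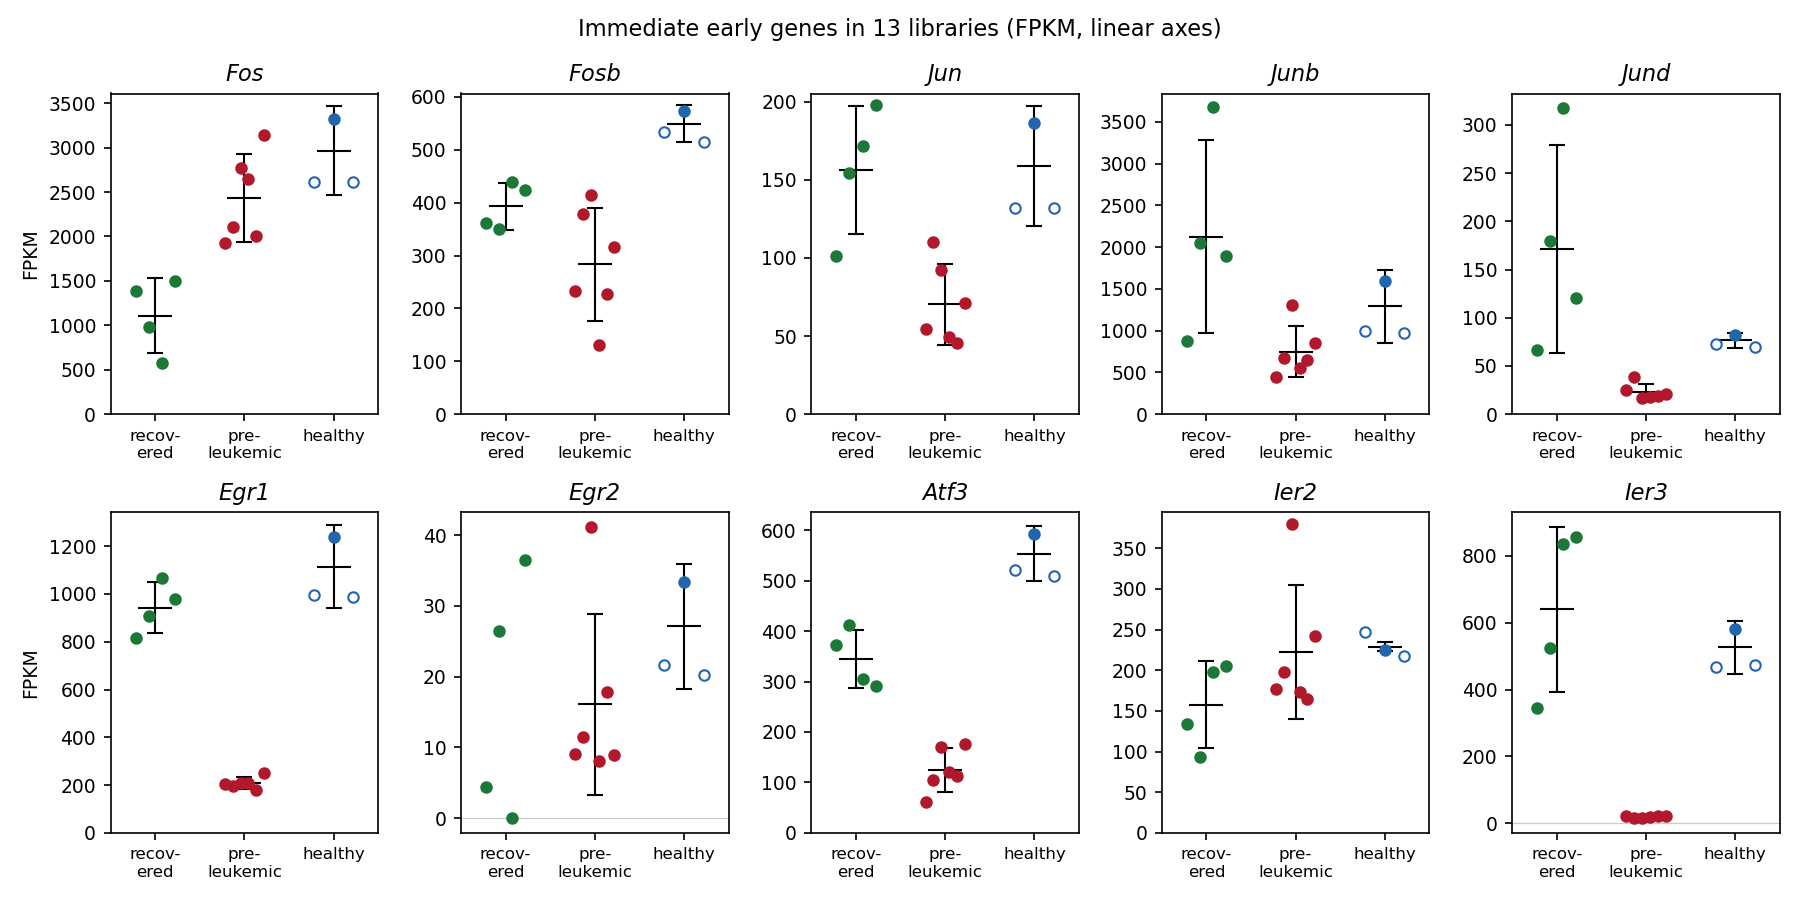
FPKM of the 10 members in each library by group, on linear axes, with the mean ± SD as bars (none where a library is listed at 0) and open circles for healthy 1 and 3, which count as 1 sample. Ier3 lies between 15 and 22.8 FPKM in all pre-leukemic libraries and at 344.6 or more in every other one, while Fos is lowest in the recovered libraries.

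The Fos family comes first. Fos, which forms AP-1 with a Jun partner and cannot pair with itself, is at chr12:85473890-85477273. Its level was 1381, 985.7, 571.7 and 1499 FPKM in recovered libraries 1 to 4, from 1928 over a median of 2377 to 3141 in pre-leukemic ones, and 2610, 3317 and 2615 in healthy ones. Every recovered library lay below every pre-leukemic and every healthy one, and the pre-leukemic and healthy values overlapped. The means were 1109 ± 420.2 in recovered, 2434 ± 491.8 in pre-leukemic and 2965 ± 498.5 in healthy samples (SD, n = 4, 6 and 2).

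The log2 change of Fos was -1.20 ± 0.238 in recovered against pre-leukemic samples (SE, limma adjusted p = 0.00114) and -1.50 ± 0.319 in recovered against healthy ones (limma adjusted p = 0.0253). On the TPM scale, where every library sums to the same total, the first value turned to 0.27 (adjusted p = 0.552, with 0.00044 to 0.552 over the alternatives). Immunoglobulin genes fill most of that total in pre-leukemic libraries. The second call ended with no filter on low values (limma adjusted p = 0.0547) and with only the 2 groups compared (0.296). It did not hold either without healthy 2, a fit with 1 healthy sample, where the log2 change was -1.33. Pre-leukemic against healthy samples gave -0.30 ± 0.301 (limma adjusted p = 0.494, 95% interval -0.94 to 0.35). That value passed the threshold on the TPM scale (-1.97, adjusted p = 0.00193) and after quantile normalization (-1.32, adjusted p = 0.0224), within a range of 0.00193 to 0.896. Fos kept a high place everywhere, ranking 65 to 238 among all genes in recovered, 40 to 71 in pre-leukemic and 21 to 26 in healthy libraries.

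Fosb, a paralog of Fos that also needs a Jun partner, is at chr7:19302696-19310051. It reached 360.9, 349.7, 438.5 and 423.6 FPKM in recovered libraries, 130.5 to 415.5 with a median of 274.2 in pre-leukemic ones, and 534.0, 573.6 and 514.4 in healthy ones. Healthy libraries were above all others, recovered 3 and 4 exceeded every pre-leukemic library, and recovered 1 and 2 lay within the pre-leukemic range. In pre-leukemic against healthy samples Fosb fell by 1.05 ± 0.354 on the log2 scale (SE, limma adjusted p = 0.0404). This call ended without healthy 2 (adjusted p = 0.247), pre-leukemic 1 (0.0673) or pre-leukemic 5 (0.0671). It also ended with no filter (0.0682), quantile normalization (0.0806), scaling without immunoglobulin genes (0.0678) and only the 2 groups compared (0.0579), and the adjusted p ranged from 0.000962 to 0.247 over the alternatives. Recovered samples differed from pre-leukemic ones by 0.56 ± 0.28 (limma adjusted p = 0.124), which passed on the TPM scale (2.03, adjusted p = 0.00116, with 0.00116 to 0.709 over the alternatives).

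Of the Jun family, Jun (chr4:95049034-95052222) is the member with the strongest activating domain and acts at its own promoter through the TGACATCA site printed above. Its level was 101.0, 154.7, 171.7 and 197.6 FPKM in recovered libraries, 45.3 to 110.1 with a median of 62.6 in pre-leukemic ones, and 131.8, 186.2 and 131.9 in healthy ones. Recovered 1 alone of its group lay within the pre-leukemic range, and the recovered range enclosed all healthy values. The log2 change was 1.17 ± 0.311 in recovered against pre-leukemic samples (SE, limma adjusted p = 0.00824) and -1.22 ± 0.393 in pre-leukemic against healthy ones (limma adjusted p = 0.0327). The second call ended without healthy 2 (adjusted p = 0.276), pre-leukemic 1 (0.0582), pre-leukemic 4 (0.0543) or pre-leukemic 5 (0.0575), in a range of 0.000649 to 0.276. Junos, an antisense gene over the start of Jun, was at most 7.36 FPKM.

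Junb (chr8:84974484-84978718), a Jun protein that activates less strongly and can hold Jun back, had 876.7, 2052, 3678 and 1896 FPKM in recovered libraries, 447.6 to 1308 with a median of 658.8 in pre-leukemic ones, and 996.2, 1599 and 975.3 in healthy ones. Recovered 3 was the highest of all libraries and recovered 1 was within the pre-leukemic range. Junb rose by 1.42 ± 0.352 on the log2 scale in recovered against pre-leukemic samples (SE, limma adjusted p = 0.00545). Pre-leukemic against healthy samples gave -0.84 ± 0.445 (limma adjusted p = 0.182, 95% interval -1.79 to 0.12), which passed on the TPM scale (-2.51, adjusted p = 0.000489, with 0.000489 to 0.687 over the alternatives). The 3′ end of Junb overlaps Prdx2 on the other strand, which reached 497.0 FPKM, and a count that does not use strand cannot tell these reads apart.

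Jund (chr8:70698949-70700616), the Jun protein that many resting cells make steadily, had 66.4, 179.4, 317.4 and 121.0 FPKM in recovered libraries, 17.2 to 38.8 with a median of 19.9 in pre-leukemic ones, and 72.7, 82.1 and 69.8 in healthy ones. No pre-leukemic library reached the lowest library of another group. The fold of the mean FPKM was 7.36 in recovered over pre-leukemic and 0.303 in pre-leukemic over healthy samples. On the log2 scale the changes were 2.66 ± 0.4 (SE, limma adjusted p = 0.000118) and -1.73 ± 0.505 (limma adjusted p = 0.0198). Without healthy 2 the pre-leukemic fall was no longer called (adjusted p = 0.161, range 0.000816 to 0.161). The antisense gene Gm11175 inside Jund was at most 16.6 FPKM.

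The make-up of AP-1 within a library, taken from the deposited values, is left as it is by any factor applied to the whole library, though not by quantile normalization. Fos took 11 to 49.6% of the summed FPKM of the 5 AP-1 members in recovered libraries (median 31.4%), 60.2 to 77.9% in pre-leukemic ones (median 69.7%) and 57.6 to 60.7% in healthy ones (median 60.1%). Junb took 31.5 to 71% (median 50.5%), 16.2 to 28.4% (median 19.9%) and 22.6 to 27.8% (median 22.9%) in the same order. Fos was thus the leading AP-1 transcript in every pre-leukemic and healthy library and in recovered 1, and Junb led in recovered 2, 3 and 4. Fos plus Fosb stood at 0.242 to 1.67 times the sum of Jun, Junb and Jund in recovered libraries, 2.25 to 4.48 times in pre-leukemic ones and 2.08 to 2.66 times in healthy ones. Jund was the smallest share throughout or next to it, at 2.38 to 6.13% in recovered, 0.374 to 1.17% in pre-leukemic and 1.43 to 1.67% in healthy libraries, with no overlap between groups. The summed level of the 5 genes overlapped between recovered (2786 to 5177 FPKM), pre-leukemic (2688 to 4604) and healthy libraries (4307 to 5758).

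**Figure D2:**
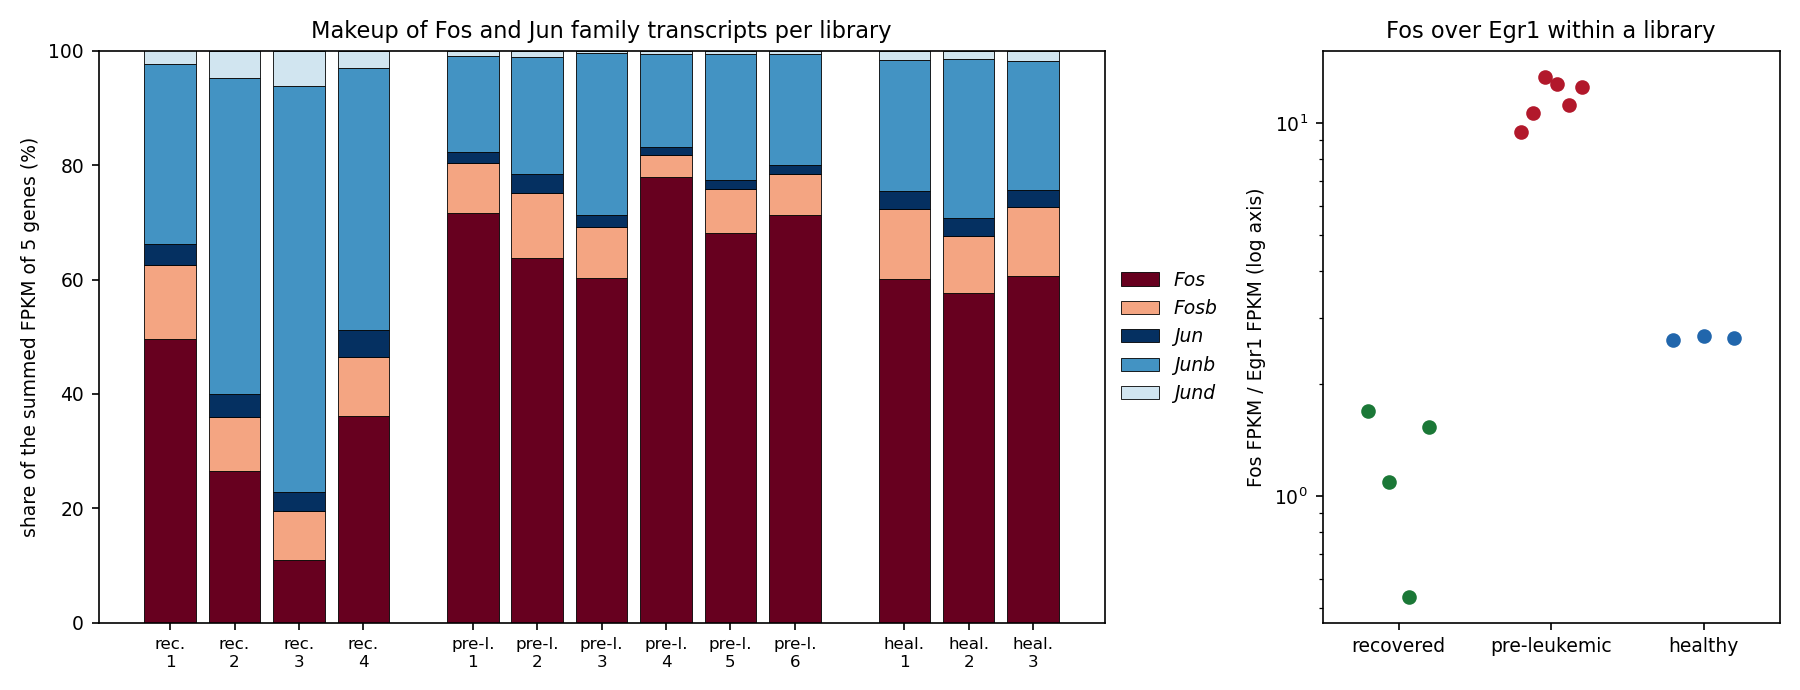
Share of each of the 5 AP-1 genes in their summed FPKM, as a stacked bar per library in percent (left), and the level of Fos over that of Egr1 in each library on a log axis (right). Fos takes at least 57.6% in every pre-leukemic and healthy library and at most 49.6% in the recovered ones, where Junb takes 31.5 to 71%, and the ratio is 0.536 to 1.69 in recovered, 9.43 to 13.3 in pre-leukemic and 2.62 to 2.68 in healthy libraries.

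Egr1, a zinc finger factor induced through SRF and a marker of recent ERK signalling, lies on chromosome 18 and varied little within groups. It measured 815.2, 906.3, 1067 and 977.8 FPKM in recovered libraries, 179.4 to 251.0 with a median of 206.5 in pre-leukemic ones, and 996.9, 1237 and 987.6 in healthy ones. The highest pre-leukemic library was below the lowest of any other group. Means were 941.7 ± 107.0 in recovered, 208.4 ± 23.6 in pre-leukemic and 1115 ± 173.0 FPKM in healthy samples (SD, n = 4, 6 and 2), a fold of 4.52 in recovered over pre-leukemic and 0.187 in pre-leukemic over healthy. The log2 changes were 2.17 ± 0.159 (SE, limma adjusted p = 1.84e-07) and -2.41 ± 0.201 (limma adjusted p = 1.61e-06), and both calls held under all 22 alternatives. Recovered against healthy samples gave -0.24 ± 0.213 (limma adjusted p = 0.645).

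Set against Fos within each library, Egr1 showed the split between the members. The level of Fos was 0.536 to 1.69 times that of Egr1 in recovered libraries, 9.43 to 13.3 times in pre-leukemic ones and 2.62 to 2.68 times in healthy ones. These ranges of deposited values did not overlap, and multiplying a whole library by a factor leaves them as they are. Quantile normalization does not: under it the log2 change in pre-leukemic against healthy samples was -1.32 for Fos and -2.47 for Egr1, in place of -0.30 and -2.41.

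Egr2, the paralog of Egr1 known for its part in myelination and in lymphocytes, is at chr10:67535475-67542188 and was the lowest member in 12 of the 13 libraries. It was listed at 4.43, 26.5, 0 and 36.5 FPKM in recovered libraries, at 8.05 to 41.2 with a median of 10.2 in pre-leukemic ones, and at 21.6, 33.4 and 20.2 in healthy ones. The values overlapped between all groups, and 3 reads on Egr2 were worth 0.642 FPKM in the library listed at 0. No call was made in any comparison, with limma adjusted p values of 0.515 (recovered against pre-leukemic), 0.554 (pre-leukemic against healthy) and 0.518 (recovered against healthy). The recovered against pre-leukemic value of -0.73 turned to 0.30 without recovered 3 and to 0.53 on the TPM scale. The 95% interval of that difference was -2.55 to 1.08.

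Atf3, a stress-induced factor that pairs with Jun proteins and often represses, is at chr1:191170296-191218039. Its level was 373.2, 412.4, 304.2 and 290.8 FPKM in recovered libraries, 60.2 to 175.4 with a median of 116.8 in pre-leukemic ones, and 520.3, 592.9 and 510.2 in healthy ones. The groups formed separate steps with no overlap. Atf3 rose by 1.53 ± 0.28 on the log2 scale in recovered against pre-leukemic samples (SE, limma adjusted p = 0.000597) and fell by 2.23 ± 0.354 in pre-leukemic against healthy ones (limma adjusted p = 0.000331), both under all 22 alternatives. In recovered against healthy samples the change was -0.69 ± 0.375 (limma adjusted p = 0.391, 95% interval -1.50 to 0.11).

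The Ier genes behaved differently from one another. Ier2 (chr8:84661331-84662852), a small nuclear protein, had 134.0, 93.8, 197.7 and 205.8 FPKM in recovered libraries, 164.8 to 380.4 with a median of 187.3 in pre-leukemic ones, and 247.4, 225.3 and 218.0 in healthy ones. Recovered and pre-leukemic values overlapped, and so did pre-leukemic and healthy ones. The log2 change was -0.49 ± 0.29 in recovered against pre-leukemic samples (SE, limma adjusted p = 0.188) and -0.11 ± 0.367 in pre-leukemic against healthy ones (limma adjusted p = 0.856). Its direction depended on scaling: recovered against pre-leukemic was 0.97 on the TPM scale (adjusted p = 0.0385), against -0.94 after quantile normalization (0.014) and -0.83 when scaled without immunoglobulin genes (0.0264), in a range of 0.014 to 0.477. Pre-leukemic against healthy was -1.77 on the TPM scale (adjusted p = 0.00551) and 0.03 when scaled without immunoglobulin genes (0.966), in a range of 0.00551 to 0.966.

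Ier3 (chr17:35821684-35822923), which protects cells from apoptosis and prolongs ERK signalling, moved furthest of the 10. It had 344.6, 525.0, 834.5 and 855.4 FPKM in recovered libraries, 15 to 22.8 with a median of 20.3 in pre-leukemic ones, and 467.1, 582.8 and 474.0 in healthy ones. Every pre-leukemic library lay more than an order of magnitude below every other library. Means were 639.9 ± 248.1 in recovered, 19.5 ± 3.31 in pre-leukemic and 526.7 ± 79.4 FPKM in healthy samples (SD, n = 4, 6 and 2), a fold of 32.8 in recovered over pre-leukemic and 0.037 in pre-leukemic over healthy. The log2 changes were 4.89 ± 0.288 (SE, limma adjusted p = 2.52e-08) and -4.70 ± 0.365 (limma adjusted p = 9.71e-07), under all 22 alternatives. Its rank among all genes was 137 to 278 in recovered, 3060 to 4125 in pre-leukemic and 181 to 205 in healthy libraries. Recovered and healthy samples differed by 0.19 ± 0.387 (limma adjusted p = 0.882, 95% interval -0.63 to 1.02).

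**Figure D3:**
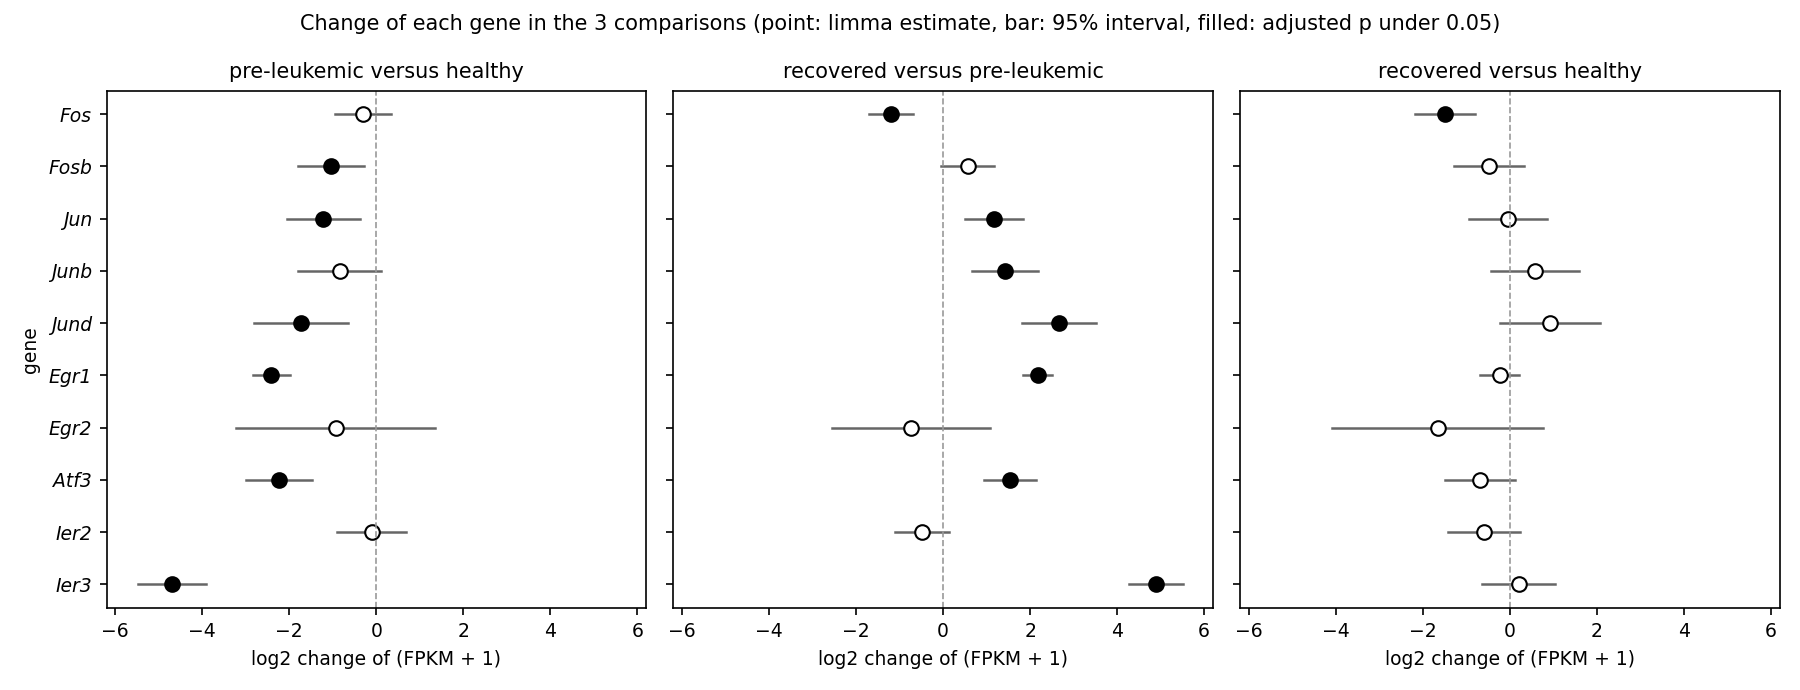
log2 change of each member with its 95% interval in the 3 comparisons, on the log2(FPKM + 1) scale, filled where limma's adjusted p is under 0.05. Ier3 stands furthest from 0 in both comparisons with pre-leukemic samples (4.89 and -4.70), and Fos is the member called lower in recovered against healthy samples (-1.50).

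The size of these changes depends on the scaling. The median gene changed by -0.41, -0.07, 0.58 and -0.63 in recovered against pre-leukemic samples as deposited, after quantile normalization, on the TPM scale and when scaled without immunoglobulin genes. Relative to that median gene, Fos lay between -0.99 and -0.31 and Ier3 between 4.86 and 5.70 over these 4 scalings. Likewise, in pre-leukemic against healthy samples the median gene changed by 0.20, 0.06, -1.08 and 0.30, and relative to it Fos lay between -1.38 and -0.47, Atf3 between -2.81 and -2.15 and Ier3 between -5.21 and -4.80. The TPM scale gave 8 members higher and 0 lower in recovered against pre-leukemic samples, in place of 6 and 1. Quantile normalization and scaling without immunoglobulin genes each gave 6 higher and 2 lower.

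In order of mean level, healthy samples had Fos, Junb, Egr1, Atf3, Fosb, Ier3, Ier2, Jun, Jund and Egr2. The neighbours Junb and Egr1 overlapped there, and so did Atf3, Fosb and Ier3. Pre-leukemic samples had Fos and Junb first as well, then Fosb, Ier2 and Egr1, whose ranges overlapped, then Atf3 and Jun, which overlapped, and last Jund, Ier3 and Egr2, which overlapped too. Ier3 was thus among the 3 lowest members in all pre-leukemic libraries and between the third and sixth place in every other library. Recovered samples had Junb, Fos, Egr1, Ier3, Fosb, Atf3, Jund, Ier2 and Jun, with Egr2 last, and neighbours overlapped throughout, apart from Jun and Egr2.

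Libraries of a group differed in several members at once. Recovered 1 lay below its group mean for 8 of the 10 members and was the lowest of its group for 5, with Jund 1.13 below the mean on the log2 scale and Fos 0.41 above. Recovered 3 had Jund 1.11 above its group mean and Egr2 3.11 below, and it was the lowest library for Fos. Recovered 4 lay above the mean for 8 members and was the highest for 5. Among pre-leukemic libraries, 3 and 6 lay above the mean for 8 members each and 1 and 5 below it for 8 each.

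**Figure D4:**
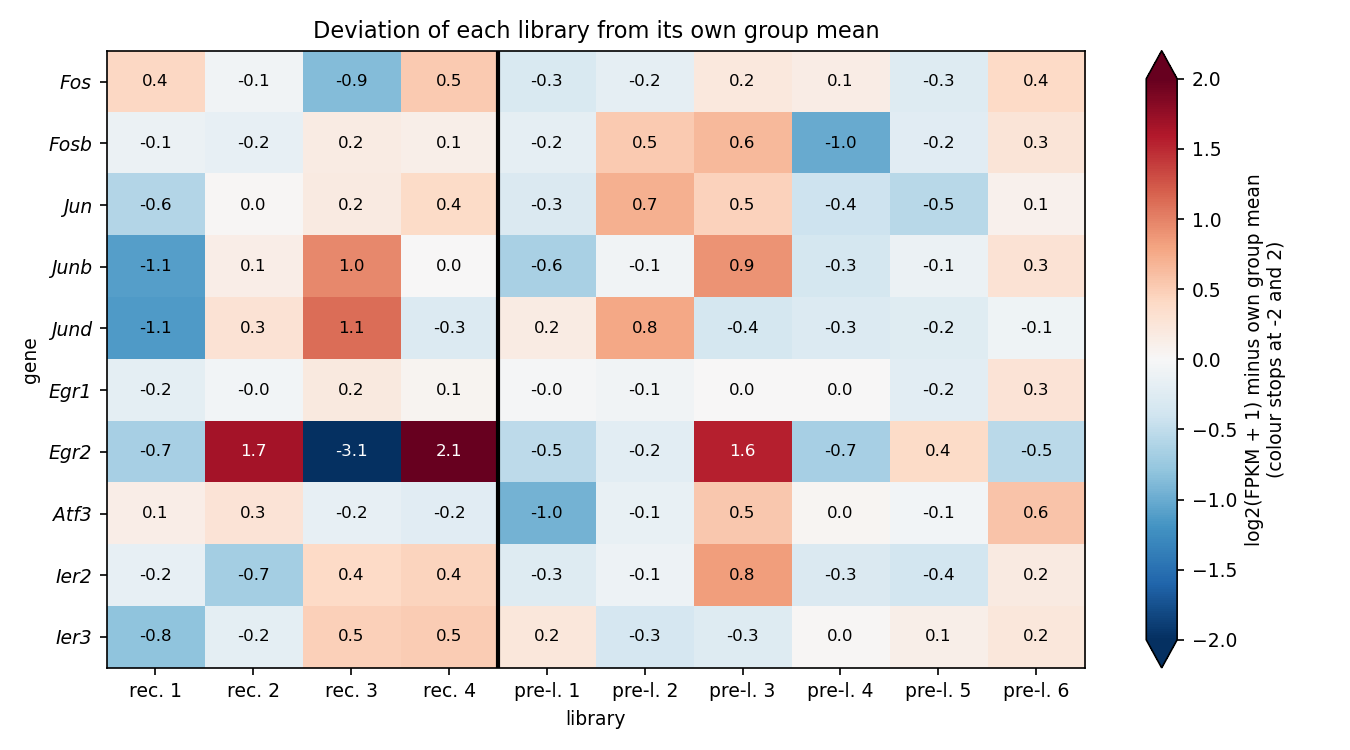
log2(FPKM + 1) of each member in each recovered and pre-leukemic library minus the mean of its own group, as colour and number. Recovered 1 is below its group for Junb and Jund and above it for Fos, and Egr2 in recovered 3 is 3.11 below its group.

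The genes with the profile most like each member were found by the root mean square difference of centred log2(FPKM + 1) values over the 12 samples. Egr1 had the closest match, Ahnak at 0.161, followed by Cyb5r3 at 0.262 and Zfhx3 at 0.266. Ahnak averaged 134.9 ± 36.6 FPKM in recovered, 29.3 ± 4.05 in pre-leukemic and 148.5 ± 22.1 in healthy samples (SD, n = 4, 6 and 2). Among the nearest to Ier3 were Col8a2 at 0.347, listed at 0 in every pre-leukemic library, and Vasn at 0.391. Col8a2 encodes a collagen chain, and its level was 26.9 to 64.5 FPKM in recovered and 32.8 to 40.1 in healthy samples. Nearest to Fos were Zmynd11 (0.286), Vps4a (0.289) and Mau2 (0.306), and nearest to Jund were Pdzd7 (0.26) and Drap1 (0.292). Zfhx3 and Pdzd7 were low genes, averaging 0.0943 and 0.124 FPKM in pre-leukemic and 4.58 and 7.49 FPKM in recovered samples. The log2(FPKM + 1) scale understates changes of such genes, so their matches to Egr1 and Jund hold on this scale and not for folds of FPKM. Egr2 had no close match, with Utp3 at 0.641. Among the members themselves Fosb and Jun were closest (0.395), followed by Egr1 and Atf3 (0.472) and Jun and Junb (0.479), and Egr2 and Ier3 were farthest apart (2.94).

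Other AP-1 and Maf genes gave 1 higher and 6 lower of 11 tested in pre-leukemic against healthy samples, with a median log2 change of -1.56. Of all genes, 14.2% were called higher and 13.1% lower there. Atf5, a factor of the stress response related to Atf4, averaged 34.9 ± 15.3 FPKM in recovered, 6.67 ± 4.51 in pre-leukemic and 25.6 ± 5.32 in healthy samples (SD, n = 4, 6 and 2). It fell by 1.96 ± 0.566 on the log2 scale in pre-leukemic against healthy samples (SE, limma adjusted p = 0.019) and rose by 2.32 ± 0.447 in recovered against pre-leukemic ones (limma adjusted p = 0.000938). Batf, an AP-1 partner of lymphocytes, went the other way, with a log2 change of 4.52 ± 1.1 in pre-leukemic against healthy samples (limma adjusted p = 0.00704). In recovered against pre-leukemic samples the list gave 7 higher and 1 lower, and in recovered against healthy samples 0 of either (limma, 1 higher and 1 lower at an unadjusted p under 0.05). The shares of all genes called were 14.8% higher and 25.1% lower in the former, and 0.518% higher and 1.99% lower in the latter. Pre-leukemic against healthy calls in this list came to 1 without healthy 2 and to 4 each without pre-leukemic 1, 4 or 5, in place of 7.

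Among 17 other immediate early transcription factors, 9 were lower and 0 higher in pre-leukemic against healthy samples (limma, 10 and 0 at an unadjusted p under 0.05), and 11 were higher and 0 lower in recovered against pre-leukemic ones (12 and 0). Shares of all genes were 13.1% lower and 14.2% higher in the first comparison, and 14.8% higher and 25.1% lower in the second. The 9 lower rested on 2 healthy samples. On the TPM scale, where the median of all genes changed by -1.08, their number was 17. Klf4, a factor that restrains growth, averaged 323.7 ± 39.8 FPKM in recovered, 61.1 ± 27.4 in pre-leukemic and 572.2 ± 63.4 in healthy samples (SD, n = 4, 6 and 2). Cebpb, which acts in inflammation and fat cell formation, averaged 340.5 ± 184.7, 5.87 ± 1.7 and 58.1 ± 9.21 FPKM in the same order. Cebpb was the 1 gene of this list called in recovered against healthy samples (2.37 ± 0.511, limma adjusted p = 0.0261), and without healthy 2 or with only the 2 groups compared in the fit 0 were called.

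Early response effectors and feedback genes gave 1 higher and 14 lower of 30 in pre-leukemic against healthy samples, and 15 higher and 8 lower in recovered against pre-leukemic ones. Of all genes, 14.2% were called higher and 13.1% lower in the first comparison, and 14.8% and 25.1% in the second. The 8 lower were near that last share. Ctgf, a matrix-associated growth factor target of SRF and YAP, averaged 401.5 ± 159.6 FPKM in recovered, 3.76 ± 0.944 in pre-leukemic and 250.6 ± 39 in healthy samples (SD, n = 4, 6 and 2). Its log2 changes were 6.34 ± 0.328 in recovered against pre-leukemic (SE, limma adjusted p = 6.73e-09) and -5.74 ± 0.415 in pre-leukemic against healthy samples (limma adjusted p = 4.79e-07). Sgk1, a kinase induced by serum, and Gadd45g, a stress sensor, changed the same way, by 3.17 ± 0.31 and 3.27 ± 0.327 in recovered against pre-leukemic samples (limma adjusted p = 2.46e-06 and 3.02e-06). Dusp2, a MAP kinase phosphatase of leukocytes, was the 1 higher gene, at 19.2 ± 13.3 FPKM in recovered, 117.1 ± 28.3 in pre-leukemic and 8.97 ± 1.03 in healthy samples. In recovered against healthy samples 0 genes were called (limma, 3 higher and 2 lower at an unadjusted p under 0.05), and 1 without recovered 3 or healthy 1.

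Regulators known to act upstream of the members were called about as often as genes in general. Of 12 SRF, ternary complex, MRTF and CREB genes, 2 were higher (Elk4 and Crem) and 2 lower (Elk1 and Crebbp) in pre-leukemic against healthy samples, with a median of 0.15 on the log2 scale, where 14.2% of all genes were called higher and 13.1% lower. The number called there was 1 without healthy 2 and 2 each without pre-leukemic 1, 2 or 6. Srf itself averaged 12 ± 5.24 FPKM in recovered, 8.47 ± 2.57 in pre-leukemic and 12 ± 0.154 in healthy samples (SD, n = 4, 6 and 2), and was called in no comparison. Elk1, a partner of SRF phosphorylated by ERK, averaged 10.2 ± 3.86, 0.605 ± 0.3 and 5.19 ± 3.17 FPKM in that order. In recovered against pre-leukemic samples this list gave 2 higher and 2 lower of 12, where 14.8% of all genes were called higher and 25.1% lower.

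Of 17 genes of the MAP kinase cascade, 4 were higher and 1 lower in pre-leukemic against healthy samples, and 2 higher and 5 lower in recovered against pre-leukemic ones. These counts are near the shares of all genes called, 27.3% and 40%. Mapk3, which encodes ERK1, was the lower one, at 394.3 ± 266.5 FPKM in recovered, 42 ± 14.4 in pre-leukemic and 217.1 ± 2.8 in healthy samples (SD, n = 4, 6 and 2). Rps6ka1, a kinase downstream of ERK, was listed at 0 to 0.114 FPKM in recovered libraries, 23.7 to 77.2 in pre-leukemic and 0.542 to 0.879 in healthy samples. Without healthy 2 the number called in the first comparison was 2 in place of 5, and without pre-leukemic 2 it was 4 in place of 7 in the second. Neither this list nor the SRF and CREB one had a call in recovered against healthy samples (limma, 2 higher and 2 lower, and 1 higher and 1 lower, at an unadjusted p under 0.05), and without recovered 1 each had 1.

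Heat shock genes that are known to rise during tissue dissociation were called in the same 2 comparisons as most members. Of 16 tested, 0 were higher and 7 lower in pre-leukemic against healthy samples (limma, also 0 and 7 at an unadjusted p under 0.05), and 10 were higher and 0 lower in recovered against pre-leukemic ones (10 and 0). Among all genes 14.2% were called higher and 13.1% lower in the first comparison, and 14.8% and 25.1% in the second. The 7 rested on 2 healthy samples. On the TPM scale, where the median of all genes changed by -1.08 and 0.58, the 7 became 12 and the 10 became 16. Hspb1, a small chaperone, averaged 309.0 ± 152.1 FPKM in recovered, 9.2 ± 3.16 in pre-leukemic and 273.1 ± 7.13 in healthy samples (SD, n = 4, 6 and 2). Bag3, a partner of the Hsp70 chaperones, averaged 206.9 ± 55.1, 6.15 ± 3.16 and 89.2 ± 3.03 FPKM in the same order. Hspa1a and Hspa1b, near-identical copies of the inducible Hsp70 gene whose reads may be shared, rose by 4.20 ± 0.384 and 5.17 ± 0.487 in recovered against pre-leukemic samples (limma adjusted p = 1.34e-06 and 1.74e-06). In recovered against healthy samples 0 were called (5 higher and 0 lower at an unadjusted p under 0.05), and without recovered 1 there were 3. Whether handling of the tissue plays a part in the levels of the members was not tested.

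**Figure D5:**
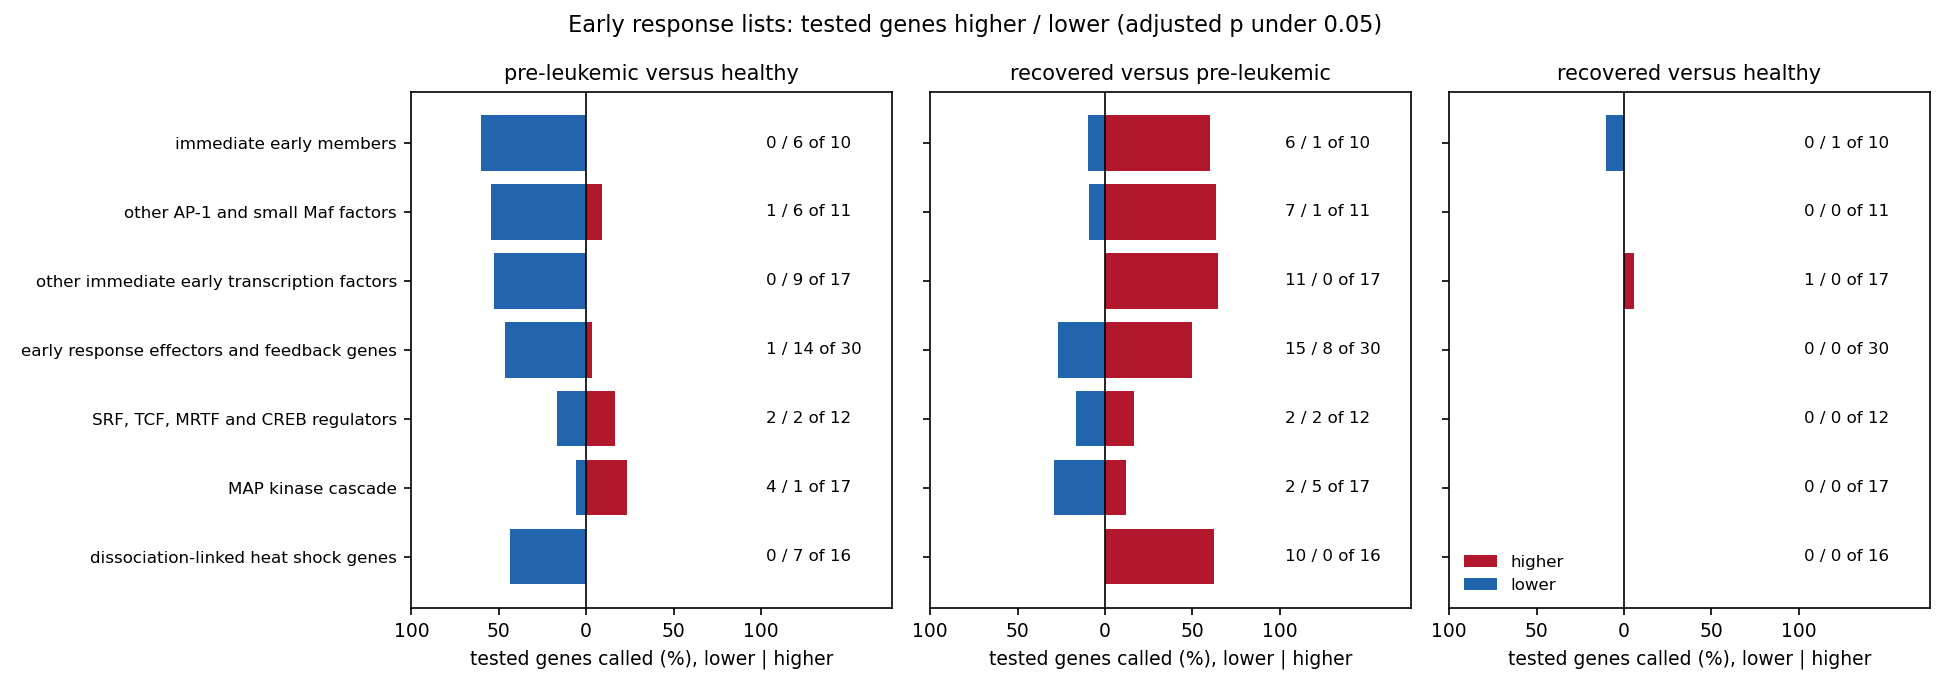
Percent of the tested genes of each list called higher (right) and lower (left) in each comparison, with the numbers higher / lower beside the bars. The 10 members give 0 / 6, 6 / 1 and 0 / 1 in pre-leukemic against healthy, recovered against pre-leukemic and recovered against healthy samples.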

How the data were processed

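The authors made and deposited FPKM values of all 13 libraries as 1 table. According to the submitters' processing notes they used bcl2fastq, TopHat, Cufflinks (version 2.2.1), Cuffnorm and the mm10 build. How Cuffnorm scaled the libraries, which annotation it used and whether strand was counted is not given in the sources used here. Nextera XT libraries were made from double-stranded cDNA of polyadenylated RNA, per the labels' protocols. Depth was estimated from the FPKM steps of 5240 genes with 1 transcript of at least 800 bp (tolerance 0.06 on the log2 scale), which covers counting error only: 3 reads on 1 kb were worth 1.04 to 1.9 FPKM in recovered, 0.494 to 0.717 in pre-leukemic and 0.943 to 1.15 in healthy libraries. Of 33432 symbols, 32082 matched the GRCm38 annotation used for coordinates, and 1 row without a symbol was left out.

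Differences were tested with limma 3.58.1 in R 4.3.3 (lmFit, eBayes with trend) on log2(FPKM + 1), a scale that understates changes of low genes. The fit held all 3 groups, 12 samples with 9 residual degrees of freedom, and the 13118 genes that reached 1 FPKM in 3 or more libraries. Benjamini-Hochberg adjustment ran over all genes tested, and calls are those with an adjusted p under 0.05. The members and the other lists were chosen with earlier results of these data known. Beside the members, the genes named were up to 4 per list with the smallest p in a comparison and the 3 nearest profiles per member, some of them not reported here. The defining markers Pdgfrb, Cxcl12, Ptprc, Igj and S100a9 were also taken. Dusp2, Srf and the other markers named for their level or for the lack of a call, such as Prdm1, Tnfrsf17, Mpo and Thy1, were chosen after their values were seen. The limma fit was tested on simulated data, and the other steps were not.

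Alternatives, 22 in all, were a pseudocount of 0.1 FPKM, no filter, a mean of at least 5 FPKM, quantile normalization, the TPM scale, scaling without 110 immunoglobulin genes, fits of the compared groups alone, separate healthy libraries with and without a block for the replicate number, and the omission of each library. Summaries and figures used Python 3.11.15, with matplotlib 3.10.9, numpy 2.4.6, scipy 1.17.1 and pandas 2.3.3.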

Additional observations from a re-analysis of the deposited data

How the results depend on the processing

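Each of the 10 changes per comparison was refitted under 22 alternatives. Of 220 values per comparison, 201 kept their direction and side of the threshold in pre-leukemic against healthy, 213 in recovered against pre-leukemic and 211 in recovered against healthy samples. The number of members called ranged from 3 to 6 over the fits that leave out a library in pre-leukemic against healthy samples and from 0 to 1 in recovered against healthy ones, the low end in both being the fit without healthy 2. In recovered against healthy samples it was also 0 with no filter on low values and 0 with only the 2 groups compared, where the adjusted p of Fos was 0.0547 and 0.296. Changes that turned sign were those of Ier2 (0.0264, scaled without immunoglobulin genes) in pre-leukemic against healthy samples, of Fos (0.27), Ier2 (0.97) and Egr2 (0.53) on the TPM scale and Egr2 (0.30, without recovered 3, the top of a range from -1.44 over the fits that leave out a library) in recovered against pre-leukemic samples, and of Jun and Ier3 in recovered against healthy samples. Jun there was 0.04 with separate healthy libraries, 0.0625 with the replicate block, 0.15 without recovered 1 and 0.20 without healthy 2 (from -0.17 over the fits that leave out a library), and Ier3 was -0.0074 on the TPM scale and -0.0071 when scaled without immunoglobulin genes. Of these, Ier2 on the TPM scale passed the threshold, and the cause of these turns was not tested. The replicate numbers did not pair the libraries (correlations of deviations -0.019 to 0.034 for 10 pairs with the same number, -0.042 to 0.037 for 44 others). With the number as a block, 4, 7 and 1 members were called in pre-leukemic against healthy, recovered against pre-leukemic and recovered against healthy samples, where separate libraries without the block gave 6, 7 and 1, and the calls of Fosb (adjusted p = 0.0724) and Jun (0.0675) in pre-leukemic against healthy samples ended. With healthy 1 and 3 near copies of each other, n is small and limits every comparison with healthy samples.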

Other observations

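Further ratios of members were taken within each library from the deposited values. A factor applied to a whole library leaves them as they are, and quantile normalization does not. The level of Ier2 was 0.179 to 0.389 times that of Ier3 in recovered libraries, 7.8 to 23.8 times in pre-leukemic ones and 0.387 to 0.53 times in healthy ones, so that pre-leukemic libraries stood apart and the other groups overlapped. Jund stood at 0.612 to 1.85 times the level of Jun in recovered libraries, 0.187 to 0.464 times in pre-leukemic ones and 0.441 to 0.551 times in healthy ones, so that recovered libraries were highest and the other groups overlapped. Fos made up 56.6 to 79.3% of the summed Fos and Fosb level in recovered libraries, 84.7 to 95.3% in pre-leukemic ones and 83 to 85.3% in healthy ones. Junb held a like share of the summed Jun family level in all groups, 84 to 88.3% in recovered, 81.8 to 92.3% in pre-leukemic and 82.9 to 85.6% in healthy libraries.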
